A study of Mus musculus with 9 samples.

Results

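Of 23296 mouse genes with at least 1 count in any library, 2285 stood higher and 2508 stood lower in all 6 libraries of the lines without the *Spi1* upstream regulatory element, Hox-URE and URE-AML, than in all 3 libraries of Hox-WT. These 4793 genes are the shared differences described here, and they were chosen by these very levels, so their distance from Hox-WT is given as a description without a test. The 2285 higher genes were 9.81% and the 2508 lower genes 10.8% of the genes with a count, and 2147 (16.4%) and 2167 (16.6%) of the 13082 genes with enough counts to be fitted. The other 138 higher and 341 lower genes were too scarce to be fitted and are counted here by their levels alone. The widest gaps among the lower genes belonged to *Adgrl4*, *Igf2bp3* and *Ptprc*, among others, and among the higher genes to *Pomgnt2*, *Serpine2*, *Tmem109* and *Tgm2*.

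Poly-A RNA was sequenced from 3 libraries of each of 3 mouse cell lines. Hox-WT (genotype WT) and Hox-URE (genotype UREd/d) are progenitor lines made from lineage-negative c-Kit+ bone marrow cells with a Hoxb8-ER fusion, in which estradiol holds the Hoxb8 factor active, and Hox-URE came from a preleukemic mouse. URE-AML (genotype UREd/d, named B22 in the labels) grew out of the leukemic blasts of a diseased mouse and carries no sign of the fusion: *Hoxb8* stood at 61.6 to 69.7 CPM (read counts scaled for library size) in Hox-WT, at 127 to 141 CPM in Hox-URE and at 0 counts in URE-AML. All lines were kept in IMDM with 20% FCS, 10 ng/ml each of IL-3, IL-6 and SCF, and 1 µM β-estradiol according to the labels.

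Each genotype and state was thus represented by a single line, and a level that both deleted lines share cannot be told apart from a level that is particular to the Hox-WT line. The labels do not say that the libraries of a line are separate cultures, so any p given here measures the spread between these libraries only. Total counts were 20331064 to 28588718 per library, and 3 counts, the floor used for genes not seen, came to 0.104 to 0.153 CPM. CPM are compared here for the same gene between lines, not between genes.

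*Spi1* encodes PU.1, an ETS family transcription factor that directs progenitors toward monocytes, granulocytes and B cells and switches on receptors for cytokines, antibodies and microbial products. The upstream regulatory element (URE) is a distal enhancer of *Spi1*, and its deletion leaves the gene in place but lowers PU.1 and causes myeloid leukemia in mice. PU.1 binds purine-rich sites with the core GGAA, often beside RUNX, C/EBP and IRF factors, and can also hold genes down.

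The labelled identity was checked on fixed markers. The summed level of 6 myeloid progenitor markers (*Kit*, *Cd34*, *Mpo*, *Elane*, *Prtn3*, *Ctsg*) was 7035 to 10635 CPM in Hox-WT, 3286 to 5141 CPM in Hox-URE and 7577 to 17262 CPM in URE-AML, although *Cd34* was close to 0 in URE-AML. Of the 6, 3 (*Kit*, *Cd34* and *Mpo*) were lower in both deleted lines and none was higher in both. *Mpo* stood at 3291, 5947 and 5881 CPM in Hox-WT, at most 10.2 CPM in Hox-URE and at most 212 CPM in URE-AML. The URE-AML sum thus came mostly from *Elane*, *Prtn3* and *Ctsg*. The deleted lines moved apart in other markers. The 6 neutrophil markers summed to 51.7 to 102 CPM in Hox-WT, 110 to 174 CPM in Hox-URE and 4148 to 9059 CPM in URE-AML, with *Ltf* and *S100a9* at 0 counts in Hox-URE. Nearly all of the Hox-URE sum was *Lcn2*, at 174, 114 and 110 CPM there, beside 6.44, 8.6 and 9.13 CPM in Hox-WT. The remaining neutrophil markers thus made up most of the Hox-WT sum and almost none of the Hox-URE sum. The 7 mast cell and basophil markers summed to 607 to 927 CPM in Hox-WT, 1803 to 6367 CPM in Hox-URE and 43.5 to 78.5 CPM in URE-AML. *Fcer1a* was at 0 counts in both Hox lines. The 5 monocyte markers summed to 20.8 to 23.6, 840 to 939 and 13.3 to 22.5 CPM. Of these, *Csf1r* and *Ly86* were lower in both deleted lines, as was *Klf4*, which at 0.0375, 0.0714 and 0.0691 CPM was under the floor of 3 counts in Hox-WT too. In Hox-URE *Csf1r* and *Klf4* stood at 0 counts and *Ly86* at no more than 0.204 CPM, so the sum there came from the other 2. Megakaryocyte markers summed to at most 46.4 CPM, erythroid markers to at most 15.9 CPM and lymphoid markers to at most 49.9 CPM in any library. The part of these lineage differences in the shared genes was not tested, and in bulk RNA fewer cells of a type and less RNA per cell cannot be told apart.

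*Spi1* itself (ENSMUSG00000002111, chromosome 2, 91082390 to 91115756, plus strand) stood at 110, 101 and 96.5 CPM in Hox-WT, at 0.0364, 0.0414 and 0 CPM in Hox-URE and at 2.5, 5.52 and 6.35 CPM in URE-AML. The transcript was nearly absent from Hox-URE and low in URE-AML, and no library of a deleted line came near Hox-WT. Between the deleted lines *Spi1* was higher in URE-AML, by 7.17 on the log2 scale of the fit (edgeR, adjusted p = 4.29e-06), a size that rests on a Hox-URE level of only a few reads.

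Of 30 genes listed as activated by PU.1, 16 were lower in both deleted lines, none was higher, and 10 of the 26 fitted genes were neither. The 16 lower genes, *Spi1* among them, were 61.5% of the fitted genes of the list, beside 16.6% of all fitted genes. The median of the list lay -2.62 from Hox-WT on the log2 scale in Hox-URE and -1.87 in URE-AML, while that over both lines was -2.58, beside 0.01 for all fitted genes. These medians are differences of mean CPM in which any line under the 3-count floor is set to the floor. *Itgb2*, *Tlr4* and *Irf8* were among the listed genes outside the shared set.

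The upstream bases of 3 lower genes and 1 higher gene are shown because each holds a PU.1 site of the form GAGGAAG before the start of transcription. Each line gives the 250 bases before a RefSeq start on GRCm38.p6, 5′ to 3′ on the strand of the gene, with GAGGAAG or its reverse complement CTTCCTC in capitals. The windows are chr3:151437632-151437881 (plus strand) for *Adgrl4*, chr11:114889791-114890040 (plus strand) for *Cd300a*, chr3:96293970-96294219 (minus strand) for *Fcgr1* and chr4:145246871-145247120 (minus strand) for *Tnfrsf1b*. A match is a run of letters and not evidence of binding.
Adgrl4: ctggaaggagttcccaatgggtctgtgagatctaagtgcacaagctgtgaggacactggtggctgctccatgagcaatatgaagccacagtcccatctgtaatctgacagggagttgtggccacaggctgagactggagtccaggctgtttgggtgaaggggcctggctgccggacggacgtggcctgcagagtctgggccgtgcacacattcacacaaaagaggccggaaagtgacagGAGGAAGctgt
Cd300a: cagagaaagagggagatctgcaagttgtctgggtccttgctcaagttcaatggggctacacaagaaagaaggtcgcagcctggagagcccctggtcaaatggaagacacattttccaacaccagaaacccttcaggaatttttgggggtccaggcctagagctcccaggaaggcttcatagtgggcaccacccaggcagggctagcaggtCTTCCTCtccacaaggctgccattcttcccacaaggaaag
Fcgr1: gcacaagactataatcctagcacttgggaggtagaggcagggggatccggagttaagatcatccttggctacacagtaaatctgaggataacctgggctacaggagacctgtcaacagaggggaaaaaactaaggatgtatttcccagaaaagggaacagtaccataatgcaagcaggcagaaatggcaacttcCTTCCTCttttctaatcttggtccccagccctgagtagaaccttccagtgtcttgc
Tnfrsf1b: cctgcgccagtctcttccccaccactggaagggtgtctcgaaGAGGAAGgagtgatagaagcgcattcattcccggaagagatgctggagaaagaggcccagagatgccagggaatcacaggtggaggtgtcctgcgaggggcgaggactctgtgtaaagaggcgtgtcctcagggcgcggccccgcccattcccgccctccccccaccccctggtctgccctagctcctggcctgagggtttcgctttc

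Counted back from the base before the start (-1), the sites begin at -11 in *Adgrl4*, -40 in *Cd300a*, -56 in *Fcgr1* and -208 in *Tnfrsf1b*. *Fcgr1*, the high-affinity IgG receptor, stood at 9.4, 6.75 and 7.23 CPM in Hox-WT and at 0 counts in all 6 deleted libraries, which makes it lower by at least 60.5-fold (Hox-URE) and 59.6-fold (URE-AML). *Cd300a*, an inhibitory receptor of myeloid cells, stood at 28.1, 39.1 and 32.5 CPM in Hox-WT and at 0 to 0.249 CPM in the deleted libraries. *Tnfrsf1b*, the TNF receptor TNFR2, lay on the other side, at 84.9, 87.5 and 84.8 CPM in Hox-WT, 489, 371 and 322 CPM in Hox-URE and 689, 766 and 763 CPM in URE-AML. Genes on both sides of the shared set thus carried these letters.

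*Adgre1*, the macrophage antigen F4/80, stood at 272, 270 and 280 CPM in Hox-WT, at 0.218, 1.41 and 2.66 CPM in Hox-URE and at 7.79, 1.76 and 1.63 CPM in URE-AML. *Tyrobp*, the signalling adaptor DAP12, stood at 20.3, 27.2 and 23.4 CPM in Hox-WT and at most 1.03 CPM in a deleted library. In both genes the lowest Hox-WT library was far above the highest deleted one. *Btk*, a kinase of B cells and mast cells, was uneven within Hox-URE, where its libraries read 4.99, 27.7 and 54.3 CPM, and low in URE-AML at 0.363, 0.475 and 1.33 CPM. *Itgam* (CD11b) stood at 4.61, 8.5 and 8.78 CPM in Hox-WT, at 0 counts in Hox-URE and at 0.686, 1.62 and 2.96 CPM in URE-AML. Of the 16 lower genes, 9 were called higher in URE-AML than Hox-URE and 3 lower (edgeR, adjusted p under 0.05 and over 1.5-fold), beside 20.4% and 22.4% of all fitted genes. Several of them, such as *Itgam*, *Tyrobp* and *Spi1*, were at or near 0 counts in Hox-URE. There a call of lower in URE-AML was hardly possible, so this split was in part fixed in advance.

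**Figure D1:**
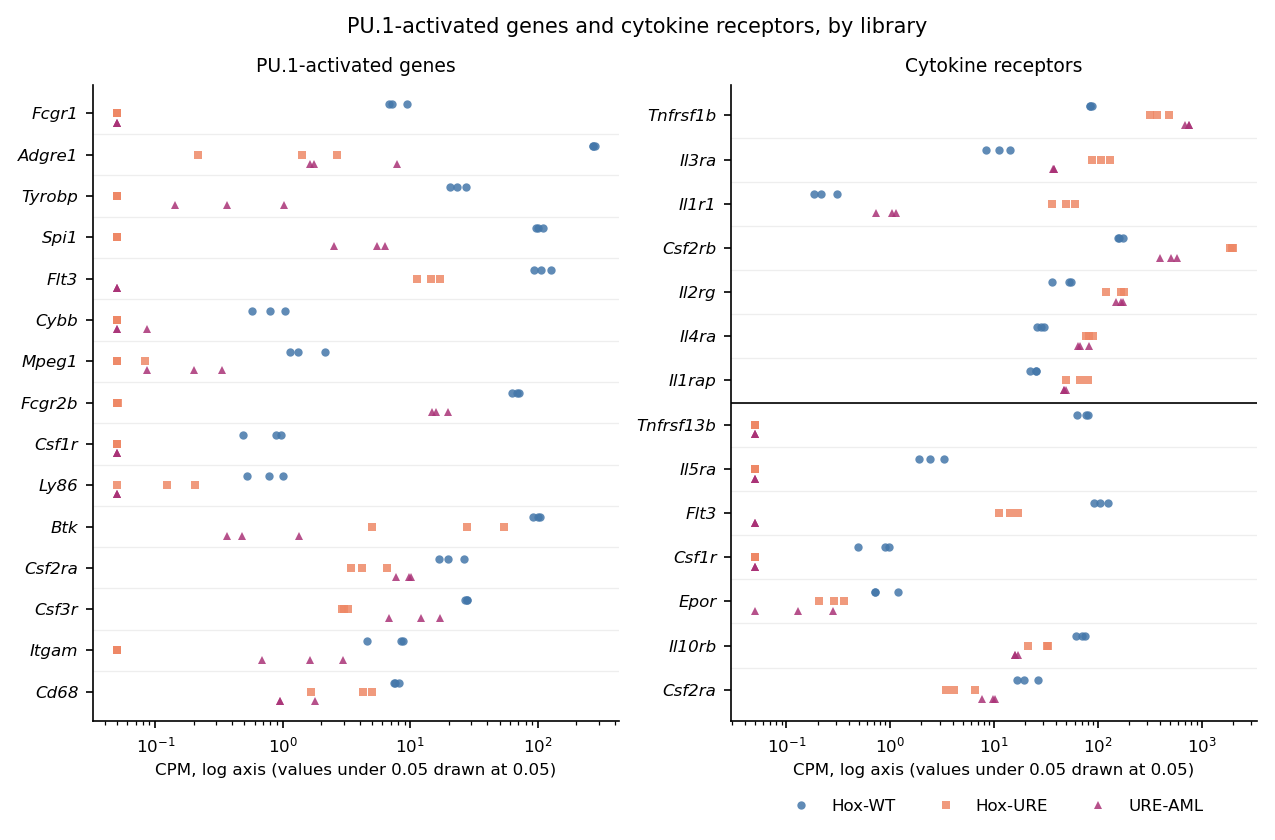
CPM on a log axis for each of the 9 libraries (points, 3 per line), for 15 of the 16 PU.1-activated genes in the shared set (left) and for 14 cytokine receptors in it (right, the 7 higher genes above the line and the 7 lower genes under it), with values under 0.05 CPM drawn at 0.05. *Fcgr1* has all 6 deleted libraries at 0 counts, and *Csf2rb* has all 3 Hox-URE libraries at 1869 CPM or above.

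The 10 higher genes with the widest gap, measured as log2 of the lowest library on the high side over the highest on the low side, had gaps of 7.19 to 9.46. *Pomgnt2*, an enzyme that builds the O-mannose glycan of dystroglycan, stood at 0 counts in Hox-WT, at 84.6, 82 and 79 CPM in Hox-URE and at 92.9, 97.6 and 107 CPM in URE-AML, higher by at least 760-fold (Hox-URE) and 921-fold (URE-AML). *Serpine2*, a secreted serine protease inhibitor, had a single count in Hox-WT and stood at 177, 177 and 100 CPM in Hox-URE and 75.6, 85 and 128 CPM in URE-AML. *Tgm2*, the protein crosslinking enzyme transglutaminase 2, was read at 1.42, 1.18 and 1.56 CPM in Hox-WT, at 1811, 564 and 635 CPM in Hox-URE and at 1503, 1205 and 1299 CPM in URE-AML. These genes were silent or nearly silent in Hox-WT and well expressed in every deleted library, with the first Hox-URE library apart for *Tgm2*. *Tmem109* encodes a membrane protein of the nuclear and reticular membranes, *Heph* the iron oxidase hephaestin, *Mgll* the lipase of monoacylglycerols, *Card10* a scaffold of NF-κB signalling, *Zdhhc2* a palmitoyltransferase and *Rnf217* an E3 ubiquitin ligase. *Heph*, *Zdhhc2* and *Rnf217* had 0 counts in Hox-WT and stood higher by at least 473-fold, 426-fold and 164-fold in Hox-URE and 452-fold, 184-fold and 456-fold in URE-AML. *Ccr1*, a receptor for inflammatory chemokines, stood at 0.225, 0 and 0.173 CPM in Hox-WT, 47.8, 45.7 and 36.3 CPM in Hox-URE and 273, 251 and 265 CPM in URE-AML.

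The 10 lower genes with the widest gap had gaps of 8.69 to 10.17. *Adgrl4*, an adhesion G protein-coupled receptor also called ELTD1, stood at 245, 257 and 239 CPM in Hox-WT, at 0, 0.207 and 0 CPM in Hox-URE and at 0 counts in URE-AML. *Ptprc*, the leukocyte phosphatase CD45, stood at 152, 170 and 152 CPM in Hox-WT, at 0 counts in all 3 Hox-URE libraries and at 0.0404, 0 and 0.0429 CPM in URE-AML. *Nckap1l*, the HEM1 subunit of the actin-regulating WAVE complex, followed the same pattern, with 217, 285 and 285 CPM in Hox-WT and at most 0.525 CPM in a deleted library. CD45 and HEM1 mark nearly all blood cells, and here their transcripts were all but missing from both deleted lines. *Igf2bp3*, an RNA-binding protein of fetal progenitors, stood at 157, 175 and 166 CPM in Hox-WT and at most 0.143 CPM in the deleted libraries. *Hs6st2*, a heparan sulfate sulfotransferase, and *Adcyap1r1*, the receptor of the neuropeptide PACAP, had 0 counts in both deleted lines and were lower by at least 593-fold and 609-fold in URE-AML, respectively. *Met*, the receptor of hepatocyte growth factor, *Nfam1*, an ITAM receptor, and *Tnfrsf13b*, the TACI receptor of B cells, were also in this group, with no Hox-WT library under 63.5 CPM and no deleted library above 0.161 CPM in any of them.

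**Figure D2:**
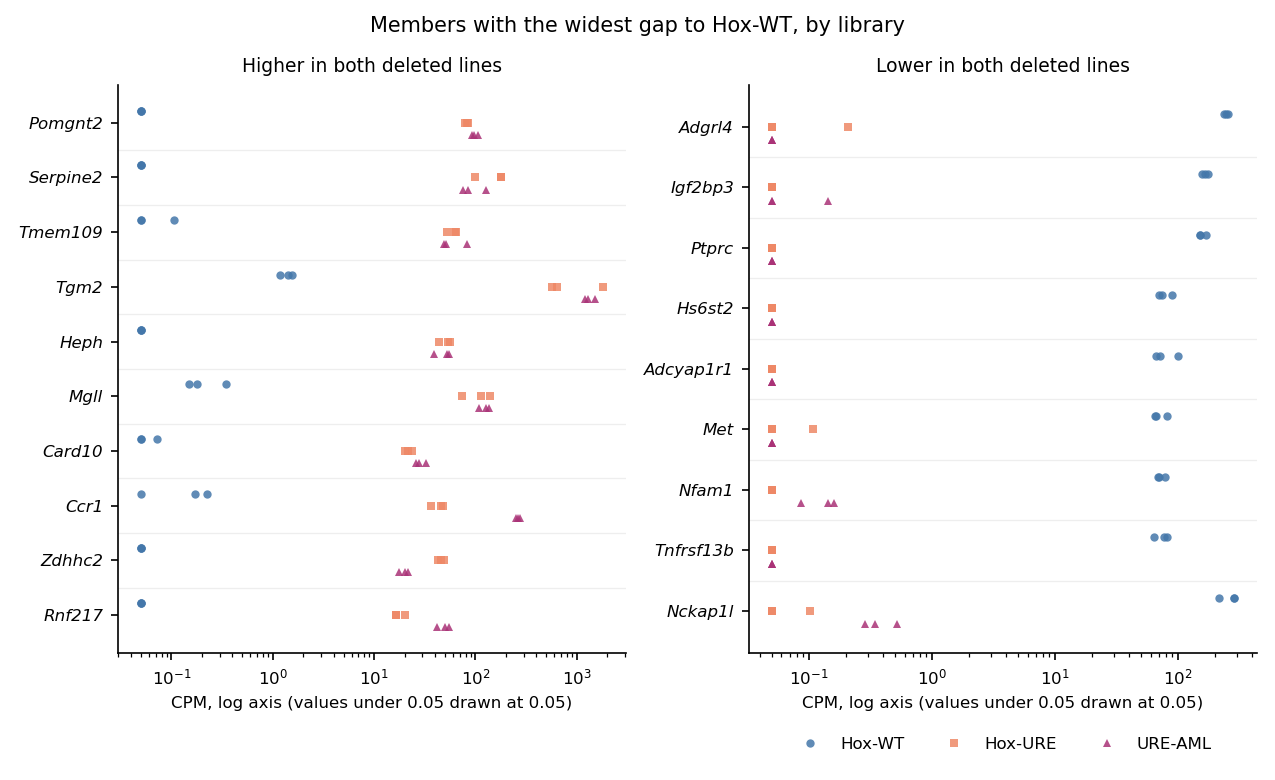
CPM on a log axis for each of the 9 libraries (points, 3 per line) of the 10 higher (left) and 9 of the 10 lower (right) protein-coding genes with the widest gap between the deleted lines and Hox-WT, with values under 0.05 CPM drawn at 0.05. On the right no deleted library lies above 0.525 CPM and no Hox-WT library under 63.5 CPM.

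Most shared differences were far smaller. The median gap was 0.36 on the log2 scale for higher genes and 0.26 for lower genes, and 1450 higher and 1752 lower genes had a gap under 1.5-fold. The gap reached 2-fold in 552 higher genes (24.2%) and 523 lower genes (20.9%), and it reached a log2 value of 4 in 126 and 100 genes. The whole low side was at 0 counts for 223 genes in each direction, of which 36 higher genes and 13 lower genes reached a mean of 10 CPM on the other side. The median difference between the mean of both deleted lines and Hox-WT was 1.20 for fitted higher genes and -0.82 for fitted lower genes. Of the fitted genes, 1307 higher (60.9%) and 1045 lower (48.2%) were called in the matching direction in the fit of each deleted line against Hox-WT, beside 10.3% and 8.03% of all fitted genes, a count that the choice of genes largely fixes.

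Just inside the rule on the higher side lay *Elavl2*, a neuronal RNA-binding protein, *Svil*, the actin-binding supervillin, and *C5ar1*, the C5a receptor, with at most 0.613 CPM in Hox-URE and at least 22.3 CPM in URE-AML in any of the 3. Just outside lay *Col5a1*, a fibrillar collagen, *Cgnl1*, a junction protein, and *Mreg*, melanoregulin, in which at least 1 Hox-URE library was at or under a Hox-WT library. *Cgnl1* read 0.218, 0 and 0 CPM in Hox-URE and 109, 74.9 and 69.3 CPM in URE-AML. On the lower side *Pbdc1*, the iron-sulfur protein gene *Cisd2* and the RNA-binding protein gene *Fxr1* lay just inside, and *Ipo13* and *Nup98*, both of nuclear transport, and *Pfkfb3*, a regulator of glycolysis, just outside. *Fxr1* had its lowest Hox-WT library and its highest URE-AML library both at 113 CPM. At the edge of the rule the sides thus touched.

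Receptors that signal through ITAM and ITIM motifs, the docking sites for SYK and for phosphatases, had 12 lower and 4 higher members among 34 listed genes, or 10 and 3 of the 26 fitted (38.5% and 11.5%), with 13 fitted genes neither. The list median of the difference lay at -2.34 in Hox-URE and 0.09 in URE-AML. *Cd33*, a sialic acid binding inhibitory receptor, stood at 299, 361 and 336 CPM in Hox-WT, at 1.67, 1.57 and 0.511 CPM in Hox-URE and at 8.8, 7.32 and 8.19 CPM in URE-AML. *Fcgr2b*, the inhibitory IgG receptor, stood at 71.3, 68.5 and 63.2 CPM in Hox-WT, at no more than 0.0511 CPM in Hox-URE and at 14.7, 15.9 and 19.8 CPM in URE-AML. *Clec12a*, an inhibitory C-type lectin, stood at 25.6, 34.8 and 32.3 CPM in Hox-WT and at most 8.54 CPM in a deleted library. All 3 receptors kept some transcript in URE-AML and were called higher there than in Hox-URE (edgeR, adjusted p = 1.55e-05 for *Cd33*, 3.98e-09 for *Fcgr2b* and 0.00837 for *Clec12a*). Of the 16 shared genes of the list, 8 were called higher in URE-AML than Hox-URE and none lower, beside 20.4% higher and 22.4% lower of all fitted genes. Several of the lower genes, *Fcgr1*, *Pirb* and *Tyrobp* among them, were at or near 0 counts in Hox-URE. For those a call of lower in URE-AML was hardly possible, so this split was in part fixed in advance. *Trem1*, an activating receptor that needs DAP12, was higher than in Hox-WT, at 39.1, 32.5 and 27.4 CPM in Hox-URE and 112, 68.2 and 76.9 CPM in URE-AML, beside 23.8, 20.8 and 19.4 CPM in Hox-WT. *Lilrb4a* and *Lilr4b*, near-identical copies whose reads may be split between them, were also higher, and *Pirb* and *Pira2*, another such pair, were lower.

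Of the kinases and adaptors behind these receptors, 14 of 30 listed genes were lower and 4 higher, or 13 and 4 of the 28 fitted (46.4% and 14.3%), with list medians of -0.57 in Hox-URE and -1.12 in URE-AML. *Syk*, the kinase that binds ITAMs, stood at 191, 198 and 198 CPM in Hox-WT, at 4.33, 5.76 and 3.83 CPM in Hox-URE and at 3.27, 6.04 and 13.9 CPM in URE-AML. It lay more than 10-fold under Hox-WT in every deleted library. *Lat2*, an adaptor at the membrane, was lower in steps, with 50.6, 63.8 and 50.2 CPM in Hox-WT, 19.5, 18.2 and 17.6 CPM in Hox-URE and 0.323, 0.666 and 0.6 CPM in URE-AML. *Vav2*, *Plcg2* and *Fyn* were lower as well. On the high side stood *Prkcb*, a protein kinase C, at 7.79, 8.14 and 4.98 CPM in Hox-WT, 180, 155 and 129 CPM in Hox-URE and 50.8, 77.6 and 71.1 CPM in URE-AML. *Dok2* and *Lcp2*, adaptors of tyrosine kinase signalling, were higher as well, and *Lcp2* was higher again in URE-AML than Hox-URE (log2 2.10, edgeR, adjusted p = 1.26e-06).

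Genes of Toll-like receptor signalling lay in both directions, with 10 of 31 listed genes lower and 6 higher, or 8 and 6 of the 25 fitted (32.0% and 24%). *Tifab*, an inhibitor of TRAF6, stood at 149, 156 and 181 CPM in Hox-WT, at 1.24, 1.28 and 1.12 CPM in Hox-URE and at 15.2, 14.8 and 13.9 CPM in URE-AML. *Ticam2*, an adaptor of TLR4, stood at 32.1, 38.9 and 37 CPM in Hox-WT and at most 0.911 CPM in a deleted library. *Cd180*, a TLR4-related surface protein, had 0 counts in both deleted lines and was lower by at least 86.8-fold (Hox-URE) and 85.6-fold (URE-AML). The sensors *Nlrp3*, *Tlr2* and *Nod1* lay on the high side. *Nlrp3*, the core of an inflammasome, stood at 0.112, 0.0357 and 0.0346 CPM in Hox-WT, 53.9, 34.4 and 30.6 CPM in Hox-URE and 26.6, 16.9 and 13.5 CPM in URE-AML. Of the 7 listed genes of the phagocyte oxidase, all fitted, 2 were lower (28.6%, beside 16.6% of all fitted genes) and none was higher. *Cybb*, among the lower ones, was already at 0.787, 0.571 and 1.04 CPM in Hox-WT. The list median of the difference lay at -0.10 in Hox-URE and 1.23 in URE-AML.

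Cytokine receptors lay on both sides, with 10 of 39 listed genes higher and 14 lower, or 9 and 13 of the 33 fitted (27.3% and 39.4%). The receptors of IL-3, a cytokine in the medium, were on the high side. *Il3ra*, the specific subunit, stood at 8.43, 11.2 and 14.2 CPM in Hox-WT, 87.5, 107 and 132 CPM in Hox-URE and 38.1, 38 and 37.3 CPM in URE-AML. *Csf2rb*, the shared signalling subunit, stood at 174, 162 and 156 CPM in Hox-WT, 1869, 1968 and 2015 CPM in Hox-URE and 583, 512 and 402 CPM in URE-AML. For both subunits no library of a deleted line overlapped Hox-WT, and Hox-URE was the highest line (URE-AML minus Hox-URE log2 -1.53 and -1.97, edgeR, adjusted p = 7.09e-05 and 9.4e-07). *Csf2rb* has a near-identical neighbour, *Csf2rb2*, so its reads may be shared out between them. *Il1r1*, the IL-1 receptor, was high in Hox-URE (50, 60.1 and 35.9 CPM) and closer to Hox-WT in URE-AML (1.05, 1.14 and 0.729 CPM beside 0.187, 0.214 and 0.311 CPM). *Il2rg* and *Il4ra*, which pair in the IL-4 receptor, stood above Hox-WT by log2 1.69 and 1.55 in Hox-URE and 1.78 and 1.33 in URE-AML, and neither was called between the deleted lines.

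Of the 33 fitted receptors 11 were in neither direction of the shared set, and several growth factor receptors were lower. *Flt3*, the FLT3 ligand receptor, stood at 92.7, 126 and 105 CPM in Hox-WT, at 17, 14.4 and 11.2 CPM in Hox-URE and at 0 counts in URE-AML. *Kit*, the SCF receptor, stood at 169, 192 and 162 CPM in Hox-WT, 50.7, 42.9 and 35.4 CPM in Hox-URE and 98.4, 99.6 and 92.7 CPM in URE-AML. *Flt3* was lowest in URE-AML and *Kit* in Hox-URE (edgeR, adjusted p = 4.31e-07 and 2.78e-05 between the deleted lines). *Csf2ra* and *Csf3r*, receptors of GM-CSF and G-CSF, and *Il6ra*, the IL-6 receptor, were lower in both lines and lowest in Hox-URE. *Il6ra* stood at 3.78, 4.36 and 3.66 CPM in Hox-WT, at most 0.0511 CPM in Hox-URE and 2.74, 2.04 and 1.97 CPM in URE-AML. *Il5ra*, the IL-5 receptor, had 0 counts in both deleted lines and was lower by at least 19.7-fold (Hox-URE) and 19.4-fold (URE-AML). *Ifnar1*, *Ifnar2*, *Ifngr2* and *Il10rb*, the interferon and IL-10 receptor genes, are neighbours on chromosome 16 and were all lower. The TGF-beta receptors were higher by narrow margins, with *Tgfbr1* at 31.7, 31.1 and 27.1 CPM in Hox-WT, 60.4, 53.4 and 51 CPM in Hox-URE and 48.5, 46 and 37.8 CPM in URE-AML, and *Tgfbr2* with a gap of 0.05 on the log2 scale.

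Of 29 listed genes of cytokine signalling and its feedback, all fitted, 11 were higher (37.9%), 2 lower (6.9%) and 16 neither. The list median of the difference lay at 0.78 in Hox-URE and 0.18 in URE-AML. *Socs3*, an inhibitor of JAK kinases, stood at 12.2, 11.5 and 11.1 CPM in Hox-WT, 114, 73.5 and 73.6 CPM in Hox-URE and 184, 174 and 149 CPM in URE-AML. *Cish*, a STAT5 target of the same family, stood at 18.1, 25 and 22.7 CPM in Hox-WT, 139, 110 and 126 CPM in Hox-URE and 156, 131 and 120 CPM in URE-AML. *Cish* was not called between the deleted lines (log2 0.12 ± 0.14 SE, edgeR, adjusted p = 0.489), while *Socs3* was higher in URE-AML (log2 0.96, adjusted p = 0.000606). *Socs1*, *Socs2*, *Pim1*, *Pim3*, *Spry2*, *Jak1*, *Tyk2*, *Stat2* and *Stat6* were the other higher genes. The lower ones were *Stat3* and *Stat5a*, and *Stat5a* stood at 48.3, 45.5 and 46.7 CPM in Hox-WT, 23.7, 37.4 and 39.3 CPM in Hox-URE and 11.7, 11 and 13.1 CPM in URE-AML.

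Of 73 listed transcription factors of blood cells, 18 were higher and 9 lower, or 18 and 7 of the 61 fitted (29.5% and 11.5%). *Ets1*, an ETS factor of lymphoid cells, stood at 0.525, 0.535 and 0.449 CPM in Hox-WT, 35.5, 32.9 and 20.3 CPM in Hox-URE and 13.7, 32 and 39 CPM in URE-AML. *Id2*, an inhibitor of E proteins, stood at 0.899, 1.46 and 1.52 CPM in Hox-WT, 13.2, 17.6 and 17.1 CPM in Hox-URE and 31.7, 30 and 22.5 CPM in URE-AML. *Klf6*, a zinc finger factor, stood at 7.94, 9 and 11.1 CPM in Hox-WT, 55.4, 61.7 and 46.8 CPM in Hox-URE and 118, 85.3 and 67.9 CPM in URE-AML. All 3 lay far outside the range of Hox-WT in every deleted library. The C/EBP genes *Cebpa*, *Cebpb* and *Cebpd*, which drive granulocyte genes, were all higher, *Cebpa* by a narrow margin (295, 303 and 315 CPM in Hox-WT, 329, 361 and 324 CPM in Hox-URE, 361, 418 and 389 CPM in URE-AML). The AP-1 genes *Jun*, *Jund* and *Fos* were higher as well, while *Batf*, of the same family, was lower. *Irf5*, a factor of Toll-like receptor signalling, stood at 7.64, 12.3 and 14.5 CPM in Hox-WT and at most 0.124 CPM in a deleted library. *Myb* and *Myc*, which sustain progenitor growth, were lower. *Myc* stood at 274, 290 and 257 CPM in Hox-WT, 137, 119 and 128 CPM in Hox-URE and 191, 141 and 131 CPM in URE-AML, and was not called between the deleted lines.

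Of 28 listed stem and progenitor genes 13 were lower and none higher, or 11 of the 18 fitted (61.1%), with 7 fitted genes neither. The list median of the difference lay at -1.0 in Hox-URE and -4.77 in URE-AML. *Cd48*, an adhesion ligand of multipotent progenitors, stood at 70.2, 87.6 and 92.3 CPM in Hox-WT and at most 1.23 CPM in a deleted library. *Hmga2*, a chromatin protein of fetal stem cells, stood at 63.8, 64.2 and 77.9 CPM in Hox-WT, 8.95, 10.9 and 11.6 CPM in Hox-URE and 0 counts in URE-AML. *Cd34*, a sialomucin of progenitors, stood at 1301, 1470 and 1530 CPM in Hox-WT, 620, 1053 and 1105 CPM in Hox-URE and 0.0404, 0 and 0 CPM in URE-AML. *Cd34* thus entered the set through a modest gap in Hox-URE (0.24 on the log2 scale) and a near absence in URE-AML, while the gap of *Hmga2* was 2.46. Of the 13 shared genes of the list, 9 were called lower in URE-AML than Hox-URE and 1, *Kit*, higher, beside 22.4% and 20.4% of all fitted genes.

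Of 30 listed genes of DNA methylation and chromatin 12 were lower and none higher, which is 41.4% of the 29 fitted, and the list median lay at -0.33 in both deleted lines. *Dnmt3b*, a de novo DNA methyltransferase, stood at 76, 74.1 and 76.3 CPM in Hox-WT, 10.4, 10.3 and 8.78 CPM in Hox-URE and 13.9, 10.5 and 9.82 CPM in URE-AML. *Dnmt3a*, its homolog, stood at 73.4, 65.7 and 78.2 CPM in Hox-WT, 31.2, 32 and 31.4 CPM in Hox-URE and 34.2, 30.7 and 32.5 CPM in URE-AML. Neither methyltransferase was called between the deleted lines (log2 0.21 ± 0.14 SE and 0.04 ± 0.10 SE, edgeR, adjusted p = 0.217 and 0.725). *Dnmt1*, the maintenance enzyme, *Ezh2* and *Eed* of the PRC2 complex, *Bmi1* and *Cbx2* of the PRC1 complex, and *Idh2* were lower too. *Tet1*, which oxidizes 5-methylcytosine, had 0 counts in both deleted lines and was lower by at least 23-fold (Hox-URE) and 22.7-fold (URE-AML). *Kdm5b*, a histone H3K4 demethylase, stood at 76.1, 89.2 and 80.4 CPM in Hox-WT, 11.3, 11.8 and 11.6 CPM in Hox-URE and 0.888, 1.47 and 1.63 CPM in URE-AML.

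Lineage genes were shared in part. Of 30 monocyte and macrophage genes 9 were lower and 1 higher, or 8 and 1 of the 19 fitted (42.1% and 5.26%), the list overlapping that of PU.1-activated genes in *Adgre1*, *Fcgr1* and others. *Lgals3*, the lectin galectin-3, was the higher one, at 0.112, 0.107 and 0.207 CPM in Hox-WT, 16, 10.9 and 15.1 CPM in Hox-URE and 134, 102 and 84.5 CPM in URE-AML. Of 15 primary granule genes 3 were lower (20.0%) and none higher, the lower share being close to the 16.6% of all fitted genes. *Mpo*, myeloperoxidase, stood at 3291, 5947 and 5881 CPM in Hox-WT, 10.2, 2.82 and 2.14 CPM in Hox-URE and 192, 212 and 173 CPM in URE-AML. Of 21 secondary and tertiary granule genes only *Adam8* and *Lcn2* were shared on the high side, 11.1% of the 18 fitted beside 16.4% of all fitted genes. The list median of the difference lay at -1.65 in Hox-URE and 5.14 in URE-AML. *Lcn2*, the iron-scavenging lipocalin, stood at 6.44, 8.6 and 9.13 CPM in Hox-WT, 174, 114 and 110 CPM in Hox-URE and 363, 263 and 285 CPM in URE-AML. Of 31 lymphoid genes 6 were lower and 1 higher, or 5 and 1 of the 15 fitted (33.3% and 6.67%), and 9 fitted genes were neither. *Rag2*, a recombinase subunit of lymphocytes, stood at 33.7, 51.1 and 49.5 CPM in Hox-WT and at 0 counts in both deleted lines, lower by at least 347-fold (Hox-URE) and 342-fold (URE-AML), and *Rag1*, *Cd79b* and *Tcf7* were lower as well. *Igll1*, the surrogate light chain, was lower but still expressed in Hox-URE, at 125, 212 and 215 CPM in Hox-WT, 44.3, 88.3 and 95.8 CPM in Hox-URE and at most 0.0858 CPM in URE-AML. Among 20 mast cell and basophil genes *Alox5*, *Mcpt8* and *Rab44* were higher and *Ikzf2* lower (20.0% and 6.67% of the 15 fitted). The higher share was close to the 16.4% of all fitted genes, and the list median lay at 2.28 in Hox-URE and -1.52 in URE-AML. Of 25 megakaryocyte and erythroid genes 4 were lower and only *Nfe2* was higher, and the 3 lower genes among the 18 fitted (16.7%) were at the share of all fitted genes. *Car2*, carbonic anhydrase II, was among the lower ones, at 1031, 1008 and 1061 CPM in Hox-WT, 299, 557 and 696 CPM in Hox-URE and 0.404, 0.903 and 0.686 CPM in URE-AML.

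Of 28 chemokine genes and receptors 9 were higher and 3 lower, or 8 and 2 of the 18 fitted (44.4% and 11.1%). Next to *Ccr1*, *Cmklr1*, the chemerin receptor, stood at 0.187, 0.107 and 0.346 CPM in Hox-WT, 2.04, 1.37 and 1.74 CPM in Hox-URE and 45.1, 46.7 and 53.1 CPM in URE-AML. *Cxcr4*, the marrow homing receptor, stood at 22.7, 20.7 and 28.1 CPM in Hox-WT, 34.1, 38.1 and 43.4 CPM in Hox-URE and 91.3, 89.6 and 131 CPM in URE-AML. Both were higher in URE-AML than Hox-URE (edgeR, adjusted p = 4.79e-08 and 6.14e-05). Of 27 integrin and adhesion genes 6 were higher and 3 lower, or 26.1% and 13% of the 23 fitted. *Itgal* (CD11a), *Itga6*, *Tln1* and *Pecam1* were higher, and *Icam1*, a ligand of CD11a, stood at 12.4, 14.4 and 14.3 CPM in Hox-WT and at most 0.0429 CPM in a deleted library. Among 39 G protein-coupled receptors of nucleotides, lipids and related ligands, 6 were higher, led by the ADP receptor *P2ry1*, and 9 lower, led by the UDP-glucose receptor *P2ry14* (20.0% and 23.3% of the 30 fitted, beside 16.4% and 16.6% of all fitted genes).

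Of 29 listed genes against oxidative stress, all fitted, 12 were higher (41.4%), 2 lower (6.9%) and 15 neither, with list medians of 0.36 in Hox-URE and 0.54 in URE-AML. *Gpx3*, a secreted glutathione peroxidase, had 0 counts in Hox-WT and stood at 5.82, 12.4 and 19.2 CPM in Hox-URE and 12.5, 16.2 and 19.9 CPM in URE-AML, higher by at least 116-fold (Hox-URE) and 150-fold (URE-AML). *Mgst2*, a microsomal glutathione transferase, stood at 7.27, 10.3 and 8.82 CPM in Hox-WT, 82.8, 80.1 and 84.3 CPM in Hox-URE and 400, 516 and 596 CPM in URE-AML. *Nqo1*, *Prdx5*, *Srxn1*, *Txn1* and *Gpx4* were higher as well. An exception was *Gpx1*, the cytosolic glutathione peroxidase, which stood at 1113, 1072 and 1090 CPM in Hox-WT, 356, 495 and 499 CPM in Hox-URE and 311, 413 and 476 CPM in URE-AML. *Slc7a11*, the cystine importer, was the other lower gene.

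Core autophagy genes showed 9 higher members and 1 lower member among 44 listed, or 20.9% and 2.33% of the 43 fitted, the higher share being close to the 16.4% of all fitted genes. *Atg9a*, the lipid scramblase of growing autophagosomes, stood at 41.3, 43.5 and 40.8 CPM in Hox-WT, 109, 132 and 114 CPM in Hox-URE and 179, 202 and 177 CPM in URE-AML. *Atg7*, the E1-like enzyme of LC3 lipidation, stood at 51, 50.5 and 47.3 CPM in Hox-WT, 115, 122 and 139 CPM in Hox-URE and 126, 135 and 128 CPM in URE-AML. *Atg7* was not called between the deleted lines and *Atg9a* was higher in URE-AML (log2 0.65, edgeR, adjusted p = 0.000219). *Tfeb*, a regulator of lysosomal and autophagy genes, was higher and its relative *Tfe3* lower. Of 45 lysosome genes 7 were higher and 5 lower, or 17.9% and 12.8% of the 39 fitted, close to the 16.4% and 16.6% of all fitted genes. *Lgmn*, the protease legumain, stood at 0, 0.107 and 0.138 CPM in Hox-WT, 121, 239 and 290 CPM in Hox-URE and 1.53, 2.04 and 1.03 CPM in URE-AML.

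Of 18 genes of acetate and fatty acid synthesis 5 were lower and none higher (29.4% of the 17 fitted), a small count beside the 16.6% lower of all fitted genes. *Scd1*, a desaturase of stearate, stood at 31.7, 59.5 and 31.8 CPM in Hox-WT, 0.946, 0.911 and 0.255 CPM in Hox-URE and 0.0404, 0.19 and 0.0429 CPM in URE-AML, and *Acly*, *Fads1*, *Fads2* and *Scd2* were lower by smaller margins. Of 24 cholesterol genes 6 were lower and 1 higher (25% and 4.17%), with *Fdps*, *Tm7sf2* and *Insig1* among the lower ones and list medians of -0.38 in Hox-URE and 0.01 in URE-AML. Glycolysis and TCA cycle genes lay on both sides, 9 higher and 8 lower of 37 (25% and 22.2% of those fitted). The higher ones included *Pfkp*, *Pfkl*, *Pgk1* and *Pkm* of glycolysis, *G6pdx*, *Pgd* and *Taldo1* of the pentose phosphate pathway, and the glucose transporter *Slc2a1*. *G6pdx*, the entry enzyme of that pathway, stood at 118, 136 and 149 CPM in Hox-WT, 294, 306 and 281 CPM in Hox-URE and 353, 384 and 413 CPM in URE-AML. The lower ones were the hexokinases *Hk1* and *Hk3*, *Pdha1* and its kinase *Pdk1*, and *Cs*, *Idh2*, *Sdha* and *Fh1* of the TCA cycle.

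Cell cycle entry genes showed 8 higher and 5 lower of 25, or 32.0% and 20.0%. *Ccnd3*, a D-type cyclin, stood at 209, 206 and 199 CPM in Hox-WT, 421, 389 and 371 CPM in Hox-URE and 633, 651 and 634 CPM in URE-AML. *Ccnd1*, another D-type cyclin, stood at 7.91, 6.25 and 5.67 CPM in Hox-WT and at most 0.161 CPM in a deleted library. *Cdk4*, their kinase, was lower, and the brakes *Rb1* and *Cdkn1a* (p21) were higher. *Mdm2*, which degrades p53, was higher and *Trp53* lower, at 208, 210 and 224 CPM in Hox-WT, 128, 133 and 134 CPM in Hox-URE and 152, 146 and 141 CPM in URE-AML. Of 34 replication and mitosis genes 9 were lower (26.5%) and 2 higher (5.88%), beside 16.6% and 16.4% of all fitted genes. The list median of the difference lay at -0.24 in Hox-URE but at 0.21 in URE-AML. The lower ones included *Mcm2*, *Mcm3*, *Mcm4*, *Mcm5* and *Mcm7* of the replicative helicase, with *Mcm7* at 802, 786 and 860 CPM in Hox-WT, 435, 422 and 440 CPM in Hox-URE and 471, 535 and 519 CPM in URE-AML. No replication or mitosis gene of the shared set was called between the deleted lines.

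Of 21 genes of the BCL2 family 4 were higher and 4 lower, or 23.5% and 11.8% of the 17 fitted, with 11 fitted genes neither. These are small counts beside the 16.4% higher and 16.6% lower of all fitted genes. The higher ones were the survival genes *Bcl2*, *Bcl2l1*, *Bcl2l2* and *Mcl1*. *Bcl2* stood at 19.6, 16.5 and 13.9 CPM in Hox-WT, 89.1, 75.8 and 76.3 CPM in Hox-URE and 35.8, 32.9 and 23.9 CPM in URE-AML. *Bcl2l1* (BCL-XL) stood at 60.8, 57.3 and 54.1 CPM in Hox-WT, 171, 143 and 139 CPM in Hox-URE and 110, 86.1 and 79.6 CPM in URE-AML. Both were lower in URE-AML than Hox-URE (log2 -1.38 and -0.72, edgeR, adjusted p = 6.41e-05 and 0.000922). The 4 lower genes were the pro-death *Bak1* and *Bid*, both by narrow margins, and *Bcl2a1a* and *Bcl2a1d*, near-identical copies of a survival gene, under 1 CPM. Of 22 caspase and death receptor genes 5 were lower and 2 higher (22.7% and 9.09%). *Gsdmd*, the pore former of pyroptosis, stood at 36.4, 40.7 and 42.5 CPM in Hox-WT, 2.55, 2.94 and 2.6 CPM in Hox-URE and 14.9, 18.7 and 26.6 CPM in URE-AML.

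N-glycan processing had 6 higher and 4 lower of 24 (27.3% and 18.2% of those fitted), with *Man1a*, a Golgi mannosidase, at 7.16, 7.03 and 7.71 CPM in Hox-WT, 346, 351 and 316 CPM in Hox-URE and 71, 82.8 and 61.6 CPM in URE-AML. Small GTPase genes had 6 higher, led by *Rap1gap2*, a RAP1 inactivator, and 3 lower of 36 (17.6% and 8.82% of those fitted). Antigen presentation had 4 higher and 1 lower of 21 (22.2% and 5.56%), and interferon-stimulated genes had 4 higher and 4 lower of 39 (13.3% and 10.0%). Amino acid response genes had 4 higher and 2 lower of 24 (18.2% and 9.09%), with *Atf4*, their main activator, at 97.6, 115 and 97.6 CPM in Hox-WT, 393, 229 and 178 CPM in Hox-URE and 150, 191 and 150 CPM in URE-AML. Carriers of iron, amines and related solutes had 3 higher and 6 lower of 21 (11.1% and 33.3% of those fitted), the lower share being above the 16.6% of all fitted genes. *Slc30a4*, a zinc exporter, had 0 counts in Hox-WT and was higher by at least 47.9-fold (Hox-URE) and 491-fold (URE-AML).

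**Figure D3:**
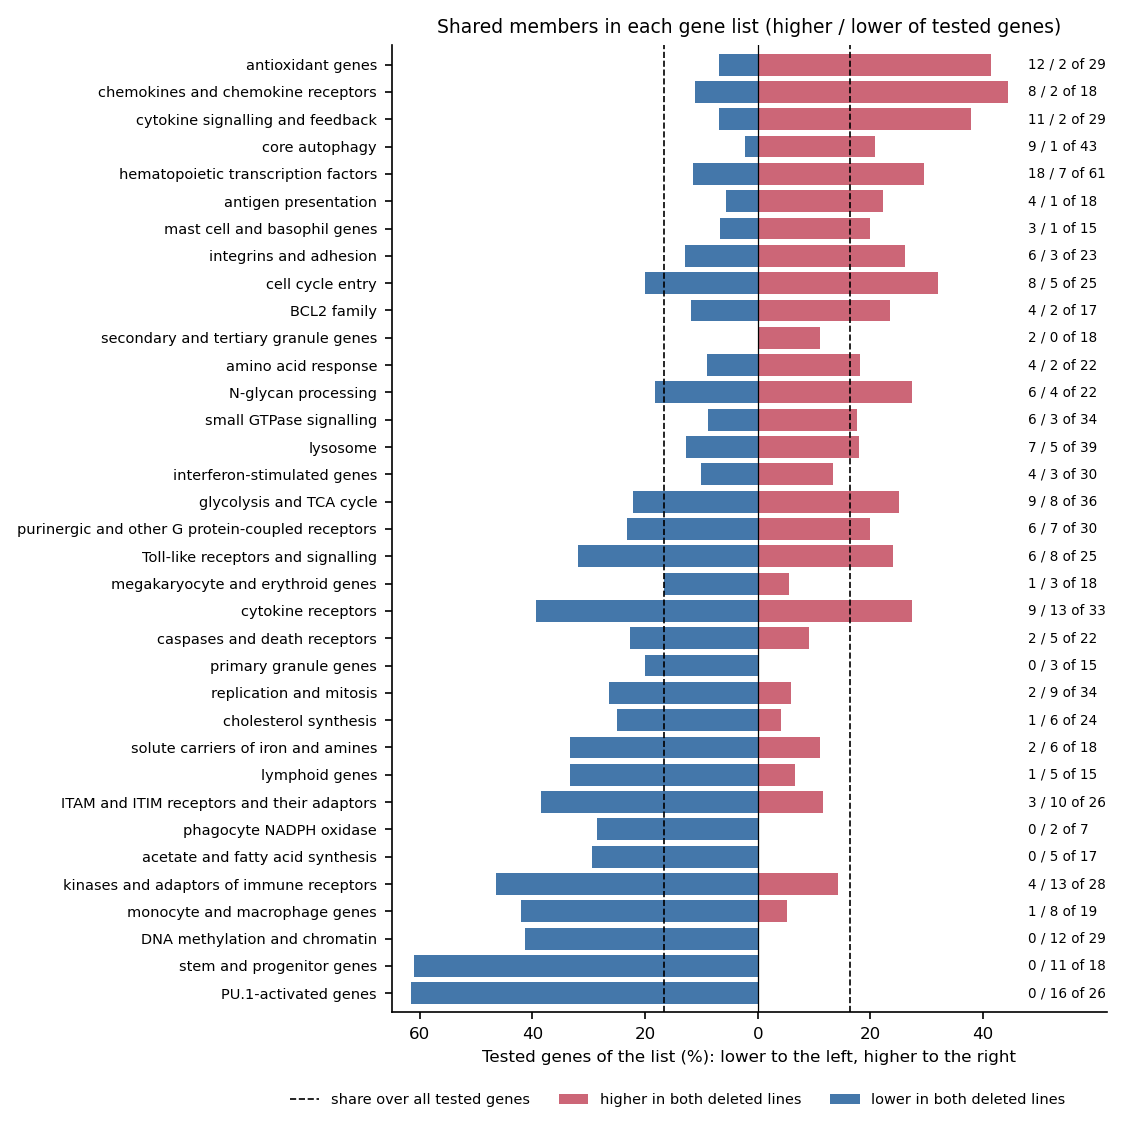
Share of the fitted genes of each of the 35 lists that were higher (right) or lower (left) in all 6 deleted libraries than in Hox-WT, in percent, with the numbers beside the bars and dashed lines at 16.4% and 16.6%, the shares over all fitted genes. Antioxidant, chemokine and feedback genes reach farthest to the right relative to the left, and stem and PU.1-activated genes farthest to the left at 61.1% and 61.5%.

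How alike the deleted lines were to each other within the shared set is a contrast the rule did not use, although the same 6 libraries entered it. The rule does place both lines on the same side of Hox-WT, so a nearness above that of all fitted genes is in part built in. Of the 2147 fitted higher genes, URE-AML was called above Hox-URE for 451 (21%) and under it for 335 (15.6%), beside 20.4% and 22.4% of all fitted genes, and 1361 (63.4%) were not called. Of the 2167 fitted lower genes, URE-AML was called above for 213 (9.83%) and under for 423 (19.5%), and 1531 (70.7%) were not called. The lines lay within 1.5-fold of each other in 1262 fitted higher genes (58.8%) and 1380 fitted lower genes (63.7%), beside 52.1% of all fitted genes. Genes of the shared set were thus not all at a common level in the deleted lines.

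Among those with the nearest levels, *Morf4l1-ps1*, a processed pseudogene whose reads may belong to *Morf4l1*, stood at 0.3, 0.393 and 0.38 CPM in Hox-WT, 49.8, 52.9 and 49.8 CPM in Hox-URE and 47.4, 55 and 50.1 CPM in URE-AML. *Dusp19*, a phosphatase of MAP kinases, stood at 5.32, 4.32 and 4.81 CPM, 11.6, 11.1 and 11.4 CPM and 11.7, 11.6 and 10.7 CPM in the same order. *Ctso*, a cathepsin, *Pdcl3*, a chaperone of tubulin and actin folding, and *Vps8*, an endosomal tethering protein, were the others on the high side. On the low side the nearest levels were common absences: *Slc25a13*, the mitochondrial aspartate-glutamate carrier, *Frzb*, a secreted WNT antagonist, *Cd180*, *Adcyap1r1* and *Rag2* had 0 counts in all 6 deleted libraries. *Slc25a13* stood at 79, 61.7 and 67 CPM in Hox-WT and was lower by at least 537-fold (Hox-URE) and 529-fold (URE-AML).

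Both higher and lower genes differed between the deleted lines in either direction, and the examples are taken from the 5 genes with the smallest p of each kind. *Mmp13*, a collagenase, was higher than Hox-WT in both lines but stood at 4739, 5890 and 6060 CPM in Hox-URE and 7.31, 7.8 and 2.92 CPM in URE-AML. *Notch1*, a receptor of cell fate decisions, stood at 3.37, 2.93 and 2.9 CPM in Hox-WT, 15.1, 12.1 and 16.3 CPM in Hox-URE and 233, 220 and 195 CPM in URE-AML. *Hlf*, a transcription factor of stem cells, stood at 383, 444 and 413 CPM in Hox-WT, 171, 184 and 153 CPM in Hox-URE and 12.2, 12 and 13 CPM in URE-AML. *Tiam1*, an exchange factor of RAC1, stood at 132, 134 and 140 CPM in Hox-WT, 2.62, 2.69 and 3.27 CPM in Hox-URE and 23, 28.9 and 26.3 CPM in URE-AML. In each of the 4 genes the 3 lines did not overlap, and the deleted lines differed by the same fit (edgeR, log2 of -9.86, 3.90, -3.77 and 3.19, adjusted p at most 2.36e-08). *Mtap*, an enzyme of methionine salvage, shows how little the rule can ask of a line: 134, 117 and 119 CPM in Hox-WT, 116, 97.8 and 96.9 CPM in Hox-URE and 1.53, 1.33 and 0.901 CPM in URE-AML.

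**Figure D4:**
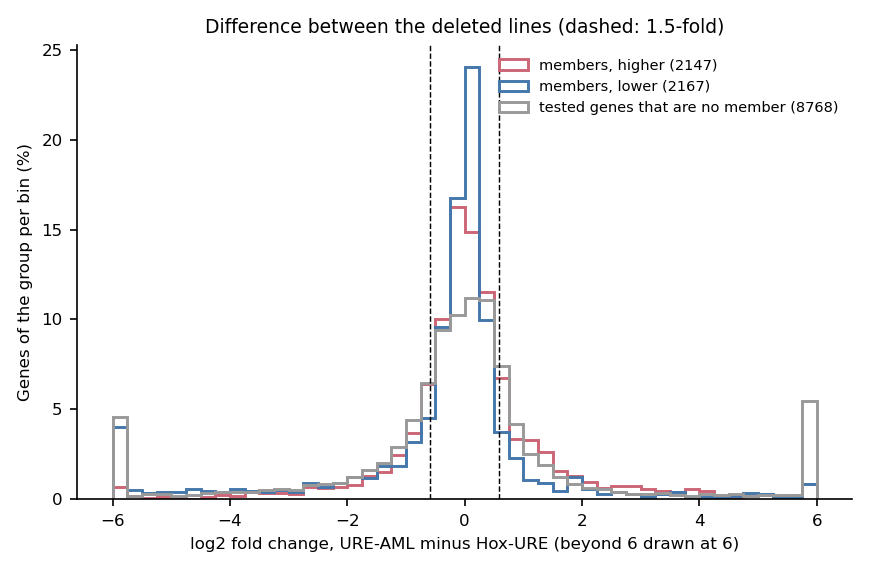
Distribution of the fitted log2 fold change of URE-AML minus Hox-URE for the 2147 higher genes, the 2167 lower genes and the fitted genes outside the shared set, as percent of each group per bin, with dashed lines at 1.5-fold and values beyond 6 drawn at 6. All 3 groups peak near 0, with 58.8% of higher and 63.7% of lower genes inside the dashed lines.

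The study had grouped genes of single hematopoietic stem and progenitor cells from mice into 4 signatures, of which 1 and 2 hold genes lower and 3 and 4 genes higher without the URE. They came from other cells than these libraries. Of the fitted genes of signatures 1 and 2, 103 of 236 (43.6%) and 254 of 553 (45.9%) were lower in both deleted lines, and 23 (9.75%) and 27 (4.88%) were higher. Of signatures 3 and 4, 102 of 307 (33.2%) and 290 of 677 (42.8%) were higher, and 22 (7.17%) and 36 (5.32%) were lower. The median differences from Hox-WT for signatures 1 to 4 were -0.56, -0.60, 0.96 and 0.72 in Hox-URE and -0.78, -0.57, 0.18 and 0.80 in URE-AML. That of signature 3 was thus far smaller in URE-AML. *Ptprc* and *Icam1* had the widest gaps of signature 1 with *Bahcc1*, a chromatin reader, and *Adgrl4*, *Nfam1* and *Tnfrsf13b* those of signature 2. In signature 3 they were *Gem*, a small GTPase that restrains calcium channels, *Cttn*, the actin-binding cortactin, and *Pkd2*, a calcium-permeable channel. *Gem* stood at 0, 0.178 and 0.242 CPM in Hox-WT, 50, 40.5 and 30 CPM in Hox-URE and 137, 113 and 84.8 CPM in URE-AML. In signature 4 they were *Pomgnt2*, *Serpine2* and *Heph*. Against their signature stood *Marcksl1*, *Paqr5* and *Hmga2* of signature 3, which were lower, and *Tmem109* and *Fmnl2* of signature 1, which were higher. Signatures 3 and 4 held 4.64% and 12.7% of the 2285 higher genes, and signatures 1 and 2 held 4.23% and 10.3% of the 2508 lower genes, so most of the shared set was in none of the matching signatures.

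**Figure D5:**
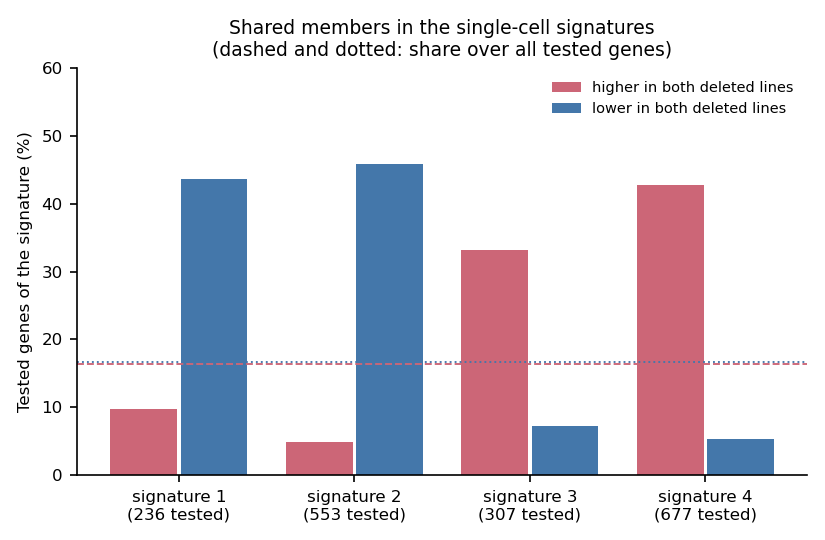
Share of the fitted genes of the 4 single-cell signatures that were higher or lower in both deleted lines than in Hox-WT, in percent, with the dashed and dotted lines at the shares over all fitted genes (16.4% and 16.6%). The lower share is 43.6% and 45.9% in signatures 1 and 2, and the higher share 33.2% and 42.8% in signatures 3 and 4.

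Protein-coding genes made up 92.3% of fitted higher and 93.9% of fitted lower genes, beside 89.3% of all fitted genes. Pseudogenes were 2.89% of fitted higher and 1.38% of fitted lower genes, beside 4.22% of all fitted genes. The median summed exon length was 4194 bases for higher, 4410 for lower and 4157 for all fitted genes. By position, chromosome 15 stood out, with 122 of 511 fitted genes higher (23.9%) and 57 lower (11.2%). Its median log2 difference from Hox-WT was 0.33 in Hox-URE and -0.00 in URE-AML, the former the largest of any chromosome, and its part in the membership of *Csf2rb*, *Nfe2*, *Atf4* and *Pim3*, all on chromosome 15, was not tested. The longest runs of neighbouring fitted genes on the same side had 6 genes, among them *Paxbp1*, *4932438H23Rik*, *Ifnar2*, *Il10rb*, *Ifnar1* and *Ifngr2* on chromosome 16 (91014037 to 91565623), all lower. *Mpo* lay in a run of 5 lower genes on chromosome 11 (87592162 to 87828289) with *Mtmr4*, *Supt4a*, *Tspoap1* and *Lpo*.

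Promoter letters were counted in windows of 250 bases before and 50 after each RefSeq start, on both strands, for the fitted protein-coding genes that matched by symbol (1588 of 1982 higher genes and 1650 of 2034 lower genes). The PU.1 site GAGGAAG was in 11.9% of 2102 higher windows, 13.2% of 2103 lower windows and 13.4% of the 12007 windows of all fitted protein-coding genes. The PU.1-IRF composite GGAANNGAA was in 7.47%, 7.47% and 7.37% and the RUNX site TGTGGT in 12.5%, 13.4% and 12.9% in that order. The ETS core ACCGGAAG was in 3.95%, 4.18% and 4.79%, and the C/EBP site TTGCNNAA in 9.09%, 7.94% and 8.72%. The AP-1 site TGACTCA was in 5.0% of higher, 3.23% of lower and 3.73% of all windows, and the E-box CACGTG in 8.71%, 11.7% and 9.92%. The IRF site GAAANNGAA (7.37%, 7.09% and 7.03%), which overlaps the composite, the CRE TGACGTCA (2.81%, 2.95% and 3.06%), the GATA site AGATAA (6.09%, 7.32% and 6.61%) and the MYB site TAACGG (3.57%, 4.56% and 3.89%) lay close to the share of all windows. The KLF/SP site GGGGCGGGG (22.4%, 20.2% and 21.1%) and the TATA box TATAAA (6.99%, 6.7% and 6.99%) did as well. Median GC content was 60.7%, 60.3% and 60.7%. These shares were not tested, and they describe proximal windows only and not distal enhancers.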

How the data were processed

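Stranded poly-A libraries of 9 samples were read by the authors with Salmon on GRCm38 (per the submitters' processing notes) and summed to genes with tximport (per the study's methods). The deposited table holds estimated counts as whole numbers for 54347 genes, not scaled to library size. Whether counts were corrected for transcript length was not given in the sources used here, so a change in transcript use could alter a count. Lines and library numbers came from the labels. CPM were computed with edgeR 4.0.16 TMM factors in R 4.3.3. For tests, filterByExpr with a minimum count of 10 kept 13082 genes. All 9 libraries were fitted by edgeR's quasi-likelihood model with line as the factor, the test was two-sided, p was adjusted by Benjamini-Hochberg over all fitted genes, and a call needed an adjusted p under 0.05 and a fold above 1.5. Floors were 3 counts per library, and bounds and floors cover counting error only.

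Members followed the rule on CPM given at the opening. They, the 35 gene lists and the naming rule were chosen with earlier results of these data known. The rule named *Spi1*, the 10 widest gaps per direction at a mean of 10 CPM or more, the genes just inside and outside, the 5 smallest p and the 5 nearest levels between the deleted lines per direction, list members (2 to 6 per list by gap at 1 CPM or more) and the 3 widest gaps per signature. Some list members with narrower gaps are named outside that order, chosen after their values were seen. A few genes that the rule covers are not reported here, although the counts include them. Annotation was GENCODE M21, which held 54094 of the identifiers and not the other 253, and promoter windows came from RefSeq (GRCm38.p6). The code was tested on simulated data. Alternatives were other scalings, filters, thresholds, DESeq2 1.42.0, leaving out libraries, and a replicate block.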

Additional observations from a re-analysis of the deposited data

Results flagged for a closer look

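Shared genes that nevertheless differed between the deleted lines were singled out by the edgeR test of URE-AML against Hox-URE, which called 664 of them higher and 758 lower in URE-AML. The 20 genes named by the smallest p follow, as log2 of URE-AML minus Hox-URE. Where one line has only a few reads the fitted size depends on the small count added by the fit and is no bound.

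Of genes higher than Hox-WT in both lines, those higher again in URE-AML were *BC018473* (11.64), *Gm14165* (8.27), *Gm13456* (6.46), *Cited4*, a CBP/p300 interacting transactivator (5.57), and *Notch1* (3.90). *BC018473* stood at 0.255, 0.58 and 0.613 CPM in Hox-URE and at 1461, 1740 and 1306 CPM in URE-AML. *Gm13456* and *Gm14165* are pseudogenes, so their reads may belong to near-identical copies. Those lower in URE-AML were *Mmp13* (-9.86), *I730030J21Rik* (-8.70), *Carmil2*, an actin regulator (-6.57), *Il1r1* (-5.64) and *Perp*, a membrane protein induced by p53 (-4.27). *Perp* stood at 533, 701 and 735 CPM in Hox-URE and at 35.8, 38.1 and 27.8 CPM in URE-AML.

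Of genes lower than Hox-WT in both lines, those less low in URE-AML were *Pkp4*, a plakophilin of cell junctions (9.93), *Fcgr2b* (8.48), *Tifab* (3.58), *Tiam1* (3.19) and *Plppr3*, a phospholipid phosphatase-related protein (2.30). *Pkp4* stood at 47, 44.5 and 45.1 CPM in Hox-WT, at most 0.0728 CPM in Hox-URE and 30.7, 34.3 and 32 CPM in URE-AML. Those lower still in URE-AML were the proton-sensing receptor *Gpr65* (-11.66), the organic anion transporter *Slco3a1* (-11.46), *Gm42047* (-10.39), *Mtap* (-6.36) and *Hlf* (-3.77). *Gpr65* stood at 88.5, 71.7 and 79.7 CPM in Hox-WT, 59.5, 63.5 and 65.8 CPM in Hox-URE and 0.0404, 0 and 0 CPM in URE-AML.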

How the results depend on the processing

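With library totals in place of TMM factors 2035 genes were higher and 2785 lower (2024 and 2469 of the reported ones kept), and with DESeq2 size factors 2306 and 2501 (2275 and 2486 kept). A gap of at least 1.5-fold left 835 higher and 756 lower genes. Leaving out 1 library at a time gave 2381 to 2585 higher and 2620 to 3015 lower genes, 651 to 755 and 722 to 852 shared genes called higher and lower in URE-AML than in Hox-URE, and 1264 to 1365 and 994 to 1129 called in the matching direction in each comparison with Hox-WT. Requiring 10 counts in every library gave 429 and 438, and 846 and 605, for these calls. Without the fold threshold the lower genes called in both comparisons with Hox-WT were 1687, and with glmTreat 686. The cause was not tested beyond what each alternative leaves out. In the fit with a replicate block, which pairs libraries by number, the calls were 662 and 746, and 1304 and 1044. The numbers are not stated to mark a shared batch, and same-numbered libraries deviated together with correlations of 0.01 to 0.271 (0.271, 0.0994 and 0.174 between the Hox lines), although in 18 of 18 comparisons of a library with another line the same number correlated best, a hint from the data only. Chosen after seeing the data, leaving out chromosome 15 left 2157 higher and 2438 lower genes. Of 4548 alternative values of 379 named genes none reversed and 195 moved by over 1 SD. Of 210 list counts 5 moved by over 1.5 times. With only fitted genes, the secondary granule list had 0 and the BCL2 list 2 lower genes. With library totals the caspase list had 1 and the cholesterol list 0 higher genes and the autophagy list 2 lower genes. Depth limits low genes: the 138 higher and 341 lower genes that were not fitted rest on few reads.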

Other observations

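Among the other runs of neighbouring fitted genes on the same side, a run of 5 higher genes on chromosome 19 (29348599 to 29648415) held *Plgrkt*, *Cd274*, *Pdcd1lg2*, *Ric1* and *Ermp1*. *Cd274*, the checkpoint ligand PD-L1, stood at 0.749, 0.607 and 0.484 CPM in Hox-WT, 3.57, 2.36 and 3.06 CPM in Hox-URE and 4.28, 4.61 and 3.39 CPM in URE-AML. A run of 5 higher genes on chromosome 13 (33003250 to 34074074) held *Serpinb9*, *Serpinb6a*, *Nqo2*, *Ripk1* and *Bphl*. *Serpinb9*, an inhibitor of granzyme B, stood at 1.16, 1.43 and 1.35 CPM in Hox-WT, 17.8, 17.7 and 14.6 CPM in Hox-URE and 14.2, 14.6 and 14.9 CPM in URE-AML. A run of 5 lower genes on chromosome 17 (21962552 to 22361400) consisted of the zinc finger genes *Zfp943*, *Zfp947*, *Zfp994* and *Zfp944* with *Gm7072*. These genes were picked after their values were seen. Long noncoding or antisense genes numbered 115 among the higher and 185 among the lower genes.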
